A study of Mus musculus with 44 samples.

Results

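Malat1 and 4 less studied long noncoding RNA loci, 0610043K17Rik, 1810008I18Rik, 1810019D21Rik and 2010320M18Rik, were followed through lists of N6-methyladenosine (m6A) peaks from mouse liver. A peak belonged to a locus when it carried the Ensembl identifier of that gene or when its whole span lay inside the gene's span in mm10. Identifiers were tied to genes by position with the RefSeq table of GRCm38.p6, the same build. The 5 loci were 5 of 1419 with a peak in any list, and they held 34 peaks under their own identifiers. A further 4 peaks inside the Malat1 span belonged to an identifier on the opposite strand and were kept apart.

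The livers came from male C57Bl/6J mice, an inbred strain, fed a diet in which fat supplied 42% of energy. In the 12-week study the mice were exposed by mouth, once, at week 2. The 4 treatments were vehicle control, Aroclor1260, a commercial mixture of highly chlorinated biphenyls, PCB126, a dioxin-like congener, and Aroclor1260 with PCB126 together, called the combination here. Doses and ages were not stated in the labels. For each treatment RNA was precipitated with an m6A antibody in 5 libraries, sequenced beside 5 input libraries and 1 pooled precipitate with control IgG. MeTPeak, a peak caller for such data, gave 8 lists, 1 per treatment against input and 1 against IgG. Each list was 1 call for a whole treatment, so no peak has a value per animal, no spread between mice could be measured and no test was made. Peak number, position and fold enrichment, the linear ratio of m6A precipitate over the reference, are the authors' own values and describe the lists. The reads behind each list and the abundance of each RNA were not analysed here, and peak calling depends on both. In whole liver, fewer cells of a type and less RNA per cell cannot be told apart.

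The lists held 506 to 2284 peaks against input and 2082 to 4129 against IgG. Their strands were uneven. Of 27025 genes with a RefSeq strand 49.8% lie on the minus strand, yet of 1112 peak-bearing identifiers placed at such genes only 21 were minus-strand identifiers at minus-strand genes, and 1002 were plus-strand identifiers at plus-strand genes. Another 79 were minus-strand identifiers placed at plus-strand genes and 10 were plus-strand identifiers at minus-strand genes, so most minus-strand labels differed from the RefSeq strand of the gene at that place. Malat1 is a minus-strand gene and was among the 21. Of the liver cell markers checked, 2 of 4 hepatocyte genes had a peak, Apoa1 in all 8 lists and Ttr in 2. Among other cell types only Dcn, a stellate cell gene, had one, in 4 lists. A missing peak does not show that an RNA was absent.

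m6A is written on RNA by a methyltransferase complex while the RNA is made, mostly where adenosine is followed by cytosine in a short consensus, and it is read by proteins that act on splicing, export and decay. Malat1 is an abundant nuclear RNA of nuclear speckles, where splicing factors gather, and its 3′ end is cut to release the small cytoplasmic RNA mascRNA. Human MALAT1 is a well-known carrier of m6A, where the mark opens a hairpin for the RNA-binding protein HNRNPC. The other 4 loci carry names from a cDNA collection and have no well-described role. 1810019D21Rik is also called Esrp2-as, after Esrp2, a regulator of epithelial splicing whose gene it overlaps.

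The 5′ ends of the RNAs are shown because all positions below are counted from them, with base 1 as the first base of the gene span. RefSeq promoter windows on GRCm38.p6 covered 4 of the 5 loci, with 2 starts for 1810008I18Rik, the later at base 997. The sequences are the first 50 bases of each RNA, 5′ to 3′. Capitals mark the m6A consensus with a central GAC, searched as AGAC, GGAC or TGAC followed by A, C or T. Such a match is a description of letters and not a methylated site.
Malat1, chr19:5802623-5802672, minus strand: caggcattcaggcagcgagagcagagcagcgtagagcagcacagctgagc
2010320M18Rik, chr8:70776862-70776911, plus strand: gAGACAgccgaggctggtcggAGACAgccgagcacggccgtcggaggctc
1810019D21Rik, chr8:106135400-106135449, plus strand: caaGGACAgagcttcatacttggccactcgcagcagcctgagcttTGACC
1810008I18Rik, first start, chr7:65803037-65803086, plus strand: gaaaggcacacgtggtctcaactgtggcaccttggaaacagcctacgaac
1810008I18Rik, later start, chr7:65804033-65804082, plus strand: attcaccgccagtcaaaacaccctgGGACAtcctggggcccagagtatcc

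On the RNA strand 2010320M18Rik had AGACA in 2 places, 1810019D21Rik had GGACA and TGACC, and the later start of 1810008I18Rik had GGACA. Malat1 and the first start of 1810008I18Rik had none in this stretch. On the opposite strand, each start of 1810008I18Rik had 1 match and the other loci had none. Over all 32851 windows, 37.6% held at least 1 such match in their first 50 bases on the RNA strand and 61.4% on either strand. The data touch these sequences at 1 locus: the 5′ peak of 2010320M18Rik began at base 50, the last base shown, in 5 lists. No Malat1 peak reached its window, the nearest beginning at base 145.

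Across the lists, Malat1 and 2010320M18Rik were the loci that recurred, and the other 3 were seen less widely. 2010320M18Rik had a peak in 7 of 8 lists and Malat1, on its own strand, in 6. 1810008I18Rik had one in 4 lists, while 0610043K17Rik and 1810019D21Rik each appeared in 1. None of the 5 had a peak in all 8 lists or in all 4 against input, where 9.94% and 11% of the 1419 loci did. Of all loci, 16.5% had a peak in 7 lists or more and 25.7% in exactly 1.

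The 5 loci were counted in each list beside the share of all loci in that list. Against input the number was 1 in the control, with 18% of all loci having a peak there, 1 after Aroclor1260, with 16.1%, 2 after PCB126, with 48.5%, and 4 in the combination, with 50.6%. Against IgG it was 3 in the control, with 42.1%, 1 after Aroclor1260, with 42.4%, 4 after PCB126, with 77.4%, and 3 in the combination, with 70.0%. The control and Aroclor1260 lists against IgG held nearly equal shares of all loci and differed at Malat1 and 1810008I18Rik.

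**Figure D1:**
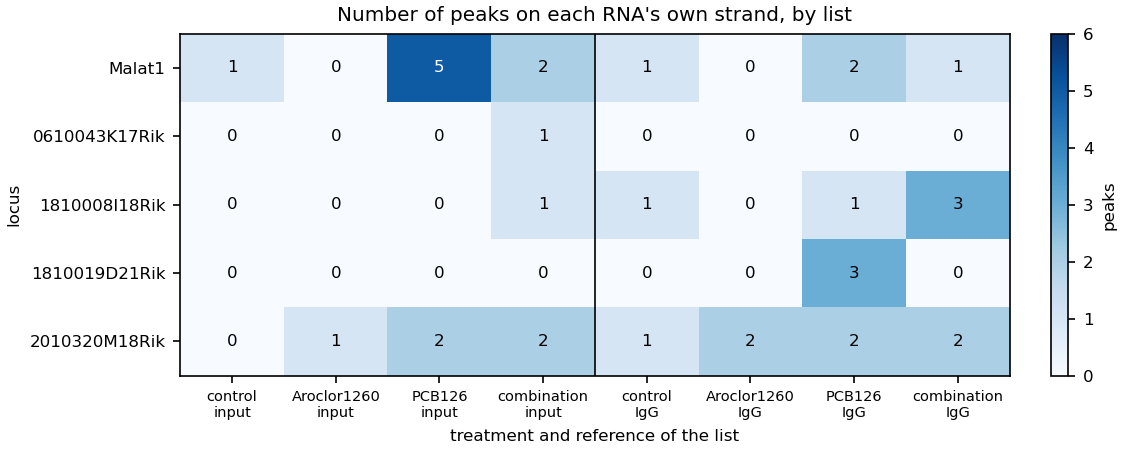
Number of peaks on the RNA's own strand at each of the 5 loci (rows) in each of the 8 lists (columns, input lists left and IgG lists right of the line); darker cells hold more peaks. Malat1 reached 5 peaks after PCB126 against input and had 0 after Aroclor1260 with either reference, and the control list against input held 1 peak among all 5 loci.

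Malat1, identifier ENSMUSG00000092341, spans chr19:5795690-5802672 on the minus strand, 6983 bases, and its m6A signal lay towards the 5′ end. In control liver it had 1 peak against input, at bases 145 to 240 (chr19:5802433-5802528), with a fold enrichment of 2.25. Against IgG the control peak had the same span and a fold of 3.6. After PCB126 this peak recurred with the same span, at 3.29 against input and 4.8 against IgG. The fold was higher after PCB126 than in the control with each reference, by a difference whose error cannot be given. The median fold of all peaks was also higher after PCB126, 2.45 against 2.32 with input and 3.3 against 2.7 with IgG. Within its list the peak stood above 47.1% of peaks in the control and 67.5% after PCB126 against input. Against IgG these shares were 65.1% and 70.7%.

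PCB126 against input added 4 peaks further along Malat1, and these included the strongest peaks of the RNA. The strongest covered bases 649 to 849 (chr19:5801824-5802024) with a fold of 8.2, above 92.4% of the peaks in that list. A wide peak of 749 bases followed at bases 1248 to 1996 (chr19:5800677-5801425) with 7.93. Between them, bases 949 to 1148 had 4, and the peak nearest the 3′ end, at bases 2844 to 2943, had 2.44. None of these 4 peaks was found in another list, the IgG list of the same treatment included. Of all loci with a peak in the PCB126 list against input, 21.2% had 5 peaks or more, as Malat1 had.

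PCB126 against IgG gave Malat1 a second peak at bases 335 to 525 with 4, beside the one at base 145. The combination marked the same 5′ stretch with other borders. Against input it had peaks at bases 192 to 287 with a fold of 3 and at bases 382 to 525 with 2.6, and against IgG 1 peak over bases 192 to 525 with 4. Bases 192 to 240, a stretch of 49 bases, were covered in all 6 lists that had a Malat1 peak. Borders of the minus-strand peaks in this 5′ stretch, and of the peaks of 2010320M18Rik below, lay at multiples of a nearly constant step. Equal borders and common stretches therefore do not place a methylated base. No list had a peak in the 4040 bases after base 2943, which hold the 3′ end of the RNA and mascRNA.

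After Aroclor1260, Malat1 had 0 peaks against input and 0 against IgG. It was therefore lost relative to the control with both references, a call made at 25 of the 1419 loci, or 1.76%. Only loci with a control peak can be lost, so these shares of all loci are low. Of the 255 loci in the control list against input 91 were lost, or 6.41% of all 1419. Of the 597 in that against IgG 178 were lost, or 12.5% of all 1419. The Aroclor1260 list against IgG was about as long as that of the control, with 2082 peaks at 601 loci against 2091 at 597. With lists of equal length, the strongest 506 peaks by false discovery rate against input, Malat1 was in no list, the control included, so the loss against input ended there. With 2082 per list against IgG, Malat1 kept its control and combination peaks but not those of PCB126 on its own strand.

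**Figure D2:**
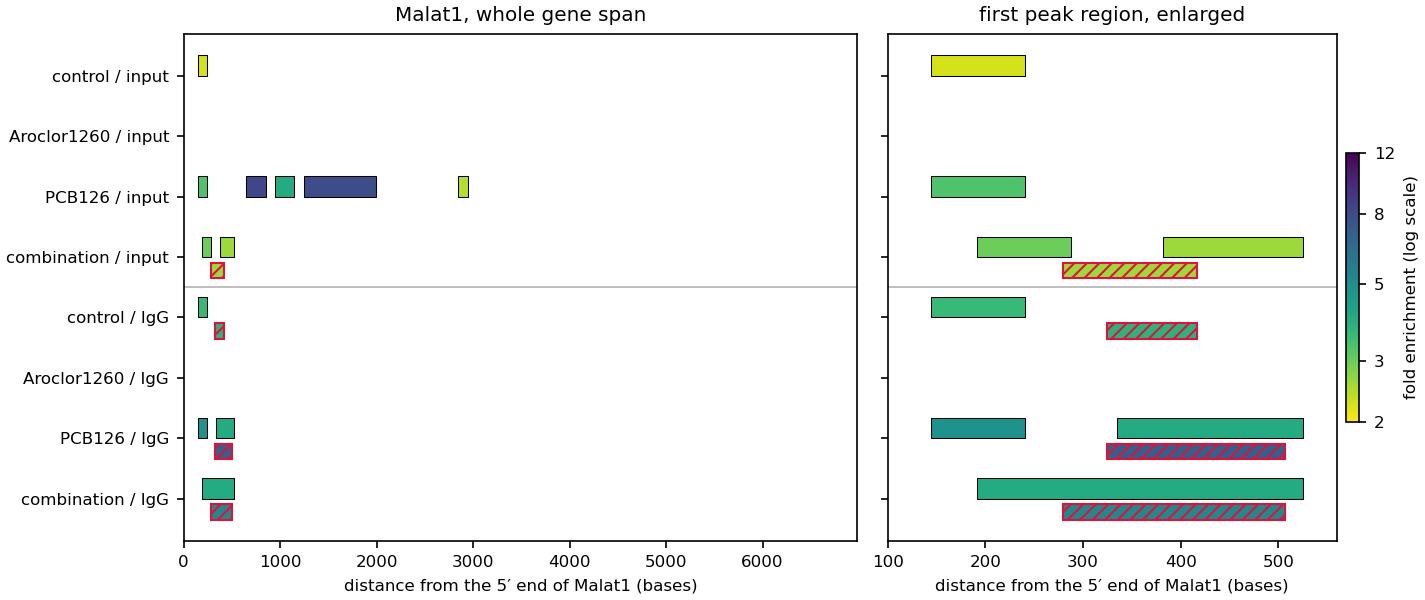
Peaks along Malat1 in each list (rows; treatment and reference), by distance from the RNA's 5′ end in bases, for the whole gene span (left) and the first peak region (right); colour gives fold enrichment on a log scale. Black outlines are minus-strand peaks of Malat1 and hatched red outlines are peaks of the plus-strand identifier; both Aroclor1260 rows are empty, and only PCB126 against input has peaks beyond base 525.

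A plus-strand identifier, ENSMUSG00000102349, lay over the same 5′ stretch of Malat1 and had 4 peaks, none of them after Aroclor1260. Against IgG its folds were 3.8 in the control at bases 325 to 416, 7 after PCB126 at bases 325 to 506 and 5.2 in the combination at bases 280 to 506. Against input it had 1 peak, in the combination, at bases 280 to 416 with 2.6. In the combination against IgG all 227 bases of its peak lay under the Malat1 peak, and after PCB126 172 of 182 did. In the control no base was shared. Whether reads were assigned by strand was not stated in the labels, so reads of Malat1 and of an RNA from the other strand cannot be told apart at this place.

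2010320M18Rik, identifier ENSMUSG00000100691, is a short locus of 745 bases on the plus strand (chr8:70776862-70777606), which begins 149 bases beyond Pik3r2, a regulatory subunit of phosphoinositide 3-kinase. It had 12 peaks in 2 regions, with folds from 2 to 10.4 and a median of 3.52. The first region was the same in every list that had it, bases 50 to 146 (chr8:70776911-70777007). The second ran within bases 242 to 578, and bases 482 to 530 were covered in all 7 lists with a peak.

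The 5′ region of 2010320M18Rik was found in exposed lists and not in the control with either reference. Its folds against input were 3.67 after PCB126 and 3.25 in the combination. Against IgG they were 2.4 after Aroclor1260, 7 after PCB126 and 2.6 in the combination. Aroclor1260 against input did not have it. Peaks without a counterpart in the control list were common, at 79.3% of the PCB126 peaks and 79.6% of the combination peaks against input, and at 41.1%, 64.2% and 59.7% of the Aroclor1260, PCB126 and combination peaks against IgG. With lists of equal length, the 5′ region was left in 1 list, Aroclor1260 against IgG. The exposed lists share 1 control list per reference, so they are not independent of each other.

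The second region of 2010320M18Rik was present in the control, but only against IgG, at bases 386 to 530 with a fold of 4. Aroclor1260 had bases 386 to 578 at 2 against input and bases 482 to 578 at 3.4 against IgG. PCB126 had bases 338 to 530 at 3.12 against input and bases 242 to 530 (chr8:70777103-70777391) at 10.4 against IgG, the highest fold at any of the 5 loci and above 93.8% of that list. The combination had bases 242 to 578 at 3.64 and bases 290 to 578 at 5.6. Both peaks of PCB126 were found in the combination with each reference, also when a reciprocal overlap of 50% was asked for.

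1810008I18Rik, identifier ENSMUSG00000100094, covers 3197 bases on the plus strand (chr7:65803037-65806233), and its peaks gathered at the 3′ end. The control had 1 peak against IgG at bases 2961 to 3058 (chr7:65805997-65806094) with a fold of 2.13, and PCB126 had bases 2961 to 3106 with 2.48. Aroclor1260 had none with either reference. The combination had bases 2870 to 3265 at 2.09 against input, which was the only peak of the locus against input.

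Against IgG the combination gave 1810008I18Rik 3 peaks, of which the strongest overlapped both of the others. The strongest, chr7:65805857-65806350, had a fold of 6.8, above 87.3% of that list. Another joined exonic blocks at bases 1240 to 1296 and 2778 to 3058 across an intron, with 4.6, and the last, inside the strongest, covered bases 3154 to 3250 with 2.1. Bases 2961 to 3058 were covered in all 4 lists with a peak. Peaks ran up to 117 bases past the end of the RefSeq span, and 84.8% of all peak bases lay inside it.

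1810019D21Rik, identifier ENSMUSG00000086390, spans 3324 bases (chr8:106135400-106138723) on the plus strand and had peaks in 1 list only, PCB126 against IgG. The strongest of its 3 peaks lay at bases 2739 to 3126 (chr8:106138138-106138525) with a fold of 5.6. A peak at bases 1853 to 1950 had 2.6, and a spliced peak with blocks of 104 and 43 bases had 3. All 147 bases of the spliced peak also lay within the span of Esrp2, while the others lay outside it. Its pattern, a peak in PCB126 against IgG and nowhere else, was shared by 12.1% of all loci.

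0610043K17Rik, identifier ENSMUSG00000087361, is the longest locus, 45403 bases on chr4:101353783-101399185, and had 1 peak in all. It was found in the combination against input, at chr4:101398941-101399037, 148 bases before the end of the span, with a fold of 3.4. Its false discovery rate was 0.0102, so a limit of 0.01 removed it. No RefSeq promoter window gave the strand of this locus, and the identifier's peak was on the plus strand.

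**Figure D3:**
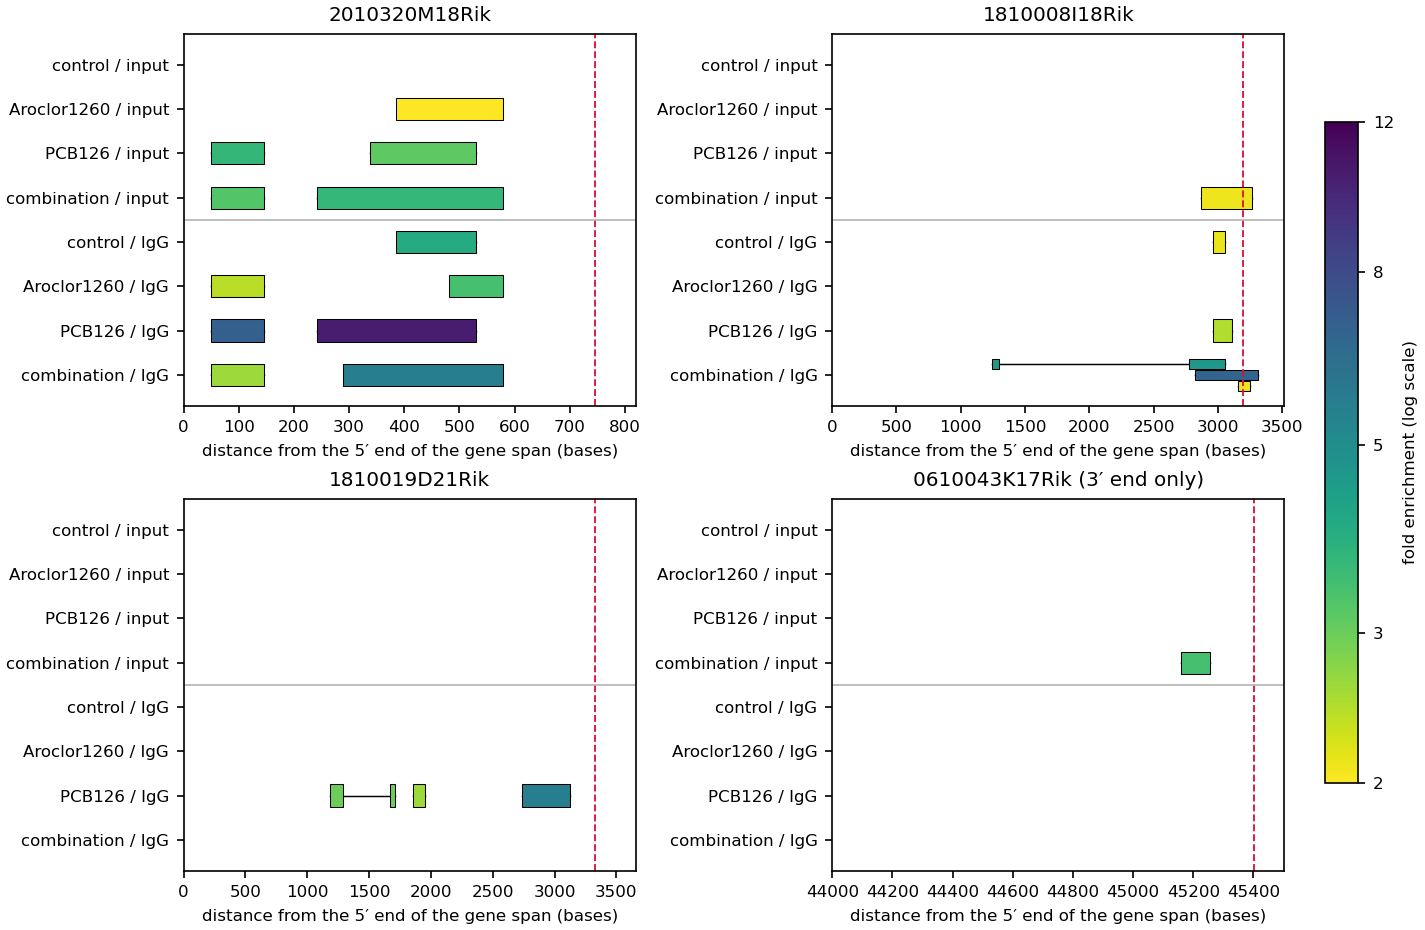
Peaks at the other 4 loci in each list (rows; treatment and reference), by distance from the 5′ end of the gene span in bases; colour gives fold enrichment on a log scale, thin lines join exonic blocks of 1 peak and the red dashed line is the end of the RefSeq span. 2010320M18Rik has its 5′ region in 5 lists, none of them a control list, and the peaks of 1810008I18Rik and 0610043K17Rik sit near the 3′ end.

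Each exposure was then compared with the control over the 5 loci. Shares are of all loci, although only loci with a control peak can be lost and only loci without one gained. After Aroclor1260 against input, 2010320M18Rik was gained, where 4.58% of all loci were, and Malat1 was lost, where 6.41% were. Against IgG 0 of the 5 loci were gained, where 12.8% of all loci were. Malat1 and 1810008I18Rik were lost, where 12.5% of all loci were, or 178 of the 597 with a control peak.

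After PCB126 against input 1 of the 5 loci was gained, 2010320M18Rik, against 31.8% of all loci. Against IgG it was 1810019D21Rik, against 40.1%. No locus of the 5 was lost with either reference, where 1.27% and 4.79% of all loci were. With lists of equal length against IgG, Malat1 was lost after PCB126 on its own strand, while 1 plus-strand peak inside its span stayed. At that length 2010320M18Rik was lost in the combination. The share of all loci lost with lists of equal length was not computed, and the shares given here are of the full lists. The combination against input gained 3 of the 5, 0610043K17Rik, 1810008I18Rik and 2010320M18Rik, against 33.8% of all loci, and against IgG it gained 0, against 33.3%. It lost 0, where 1.20% and 5.29% of all loci were lost. No gain held against both references in any exposure, a call made at 0.987% of all loci after Aroclor1260, 15.1% after PCB126 and 14.2% in the combination. The loss of Malat1 after Aroclor1260 was the only call of the 5 loci that did. After PCB126 and in the combination 0 of the 5 were lost against both references, where 0.141% and 0.211% of all loci were.

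Set among all peaks of their lists, those of the 5 loci all lay under the 95th percentile of fold enrichment. Their median fold was 2.25 against 2.32 for all peaks in the control against input, 2 against 2.14 after Aroclor1260, 3.67 against 2.45 after PCB126 and 3.13 against 2.4 in the combination. Against IgG it was 3.6 against 2.7, 2.9 against 2.62, 4.4 against 3.3 and 4.3 against 3.2 in the same order. The member medians rest on 1 to 8 peaks.

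**Figure D4:**
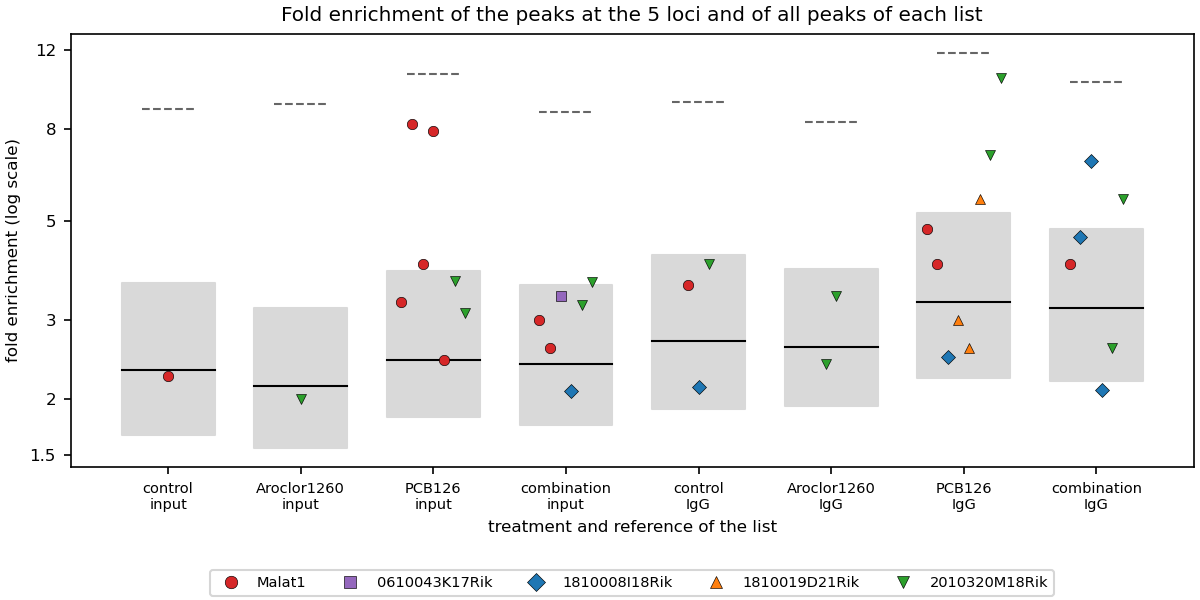
Fold enrichment (log scale) of each peak at the 5 loci in each list, with all peaks of that list as a grey band from the lower to the upper quartile, a black line at the median and a dashed line at the 95th percentile. No peak of the 5 loci passes the dashed line of its list; the highest points are 2010320M18Rik at 10.4 after PCB126 against IgG and Malat1 at 8.2 after PCB126 against input.

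Other long noncoding RNAs were rare in these lists. RefSeq lists 12731 lncRNA genes, and 12 of them, or 0.0943%, had a peak in any list, whereas 1284 of 21900 protein-coding genes, or 5.86%, did. The naming favoured coding genes, since an identifier inside both an lncRNA and a single coding gene went to the coding gene. Another 114 of 1512 identifiers had no name. Whether a gene was expressed in liver was not considered, so the shares do not compare m6A between the classes. The other 7 lncRNA loci were Gm8883, Mir22hg, BC024386, Gm32468, Gm40474, 9030616G12Rik and Gm15756, and none had a peak in more than 4 lists. They were placed by position, and the 5 peaks of Gm40474 lay on the strand opposite to the gene. Gm8883 was the most frequent, with 9 peaks up to a fold of 3.4. Mir22hg, the host RNA of the microRNA miR-22, had 2 peaks after PCB126 and 3 in the combination, up to 5.8 and only against IgG. BC024386 had 3 peaks in the control and 3 after Aroclor1260 against IgG, up to 6.6, and 0 in the other lists.

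A list of 75 other names, mostly noncoding RNAs but with a few that RefSeq classes as coding genes or pseudogenes, chosen with earlier results of these data known, matched 70 RefSeq genes, of which 2 had a peak. These were Mir22hg and Rpph1, the RNA of ribonuclease P, with 1 peak of 1.75 after PCB126 against input. Neat1, which builds paraspeckles and lies 22035 bases from Malat1, had 0 peaks in all 8 lists, as did H19, Meg3 and Gas5. Since minus-strand genes were nearly missing from the lists, the absence of an RNA on that strand says little.

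The coding neighbours of the 5 loci were looked up in the same lists. Pik3r2 and Mast3, which flank 2010320M18Rik on the minus strand, and Frmd8 near Malat1 had 0 peaks in every list. Esrp2 had 0 as well, and so did Jak1 and Ak4 near 0610043K17Rik and Tm2d3 near 1810008I18Rik. Frmd8 and Jak1 also lie on the minus strand, and no RefSeq promoter window gave the strand of Esrp2 or Tm2d3. Minus-strand genes were nearly missing from the lists, so the absence of those on that strand says little. Nfatc3, a transcription factor gene near 1810019D21Rik, had 5 peaks after PCB126 against input, 6 against IgG and 8 in the combination against IgG, up to a fold of 6. Pla2g15, a phospholipase gene on the other side of 1810019D21Rik, had 3 peaks after Aroclor1260 and 2 in the combination against IgG, up to 4.4, and 0 after PCB126. Pcsk6, a proprotein convertase gene 55902 bases from 1810008I18Rik, had peaks in 6 lists up to 26.3.

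The loci most like each recurrent member were sought by the sum, over the 8 lists, of the differences in peak number. Malat1 was closest to B230219D22Rik, with a sum of 3, and to the helicase gene Ddx54, with 4. Rnf125, Zbtb1 and Fkbpl followed with 5. For 2010320M18Rik the closest named locus was Tpst2, a protein sulfotransferase gene, with a sum of 2, and the others were Fgb, Srfbp1 and 2 identifiers without a name. For 1810008I18Rik they were Rgn and Sqor, each with 1, and Rab8a, Cnpy2 and Scarf1 with 2. Some of these were taken from ties, with 10 loci at a sum of 3 for 2010320M18Rik and 8 at 2 for 1810008I18Rik, by the nearest fold enrichments. All named ones among the 15 were protein-coding, as were 1284 of the 1419 loci with a peak in any list. A presence pattern over the 8 lists equal to that of Malat1 was found at 1.06% of all loci, Malat1 included, and the one of 2010320M18Rik at 2.61%.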

How the data were processed

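Liver RNA of 4 treatments was measured by m6A immunoprecipitation and sequencing in 44 libraries. The submitters' processing notes name BWA 0.7.17, Trimmomatic, FastQC 0.10.1, bcl2fastq 2.20.0.422 and mm10, without order or settings, and the MeTPeak version was not stated. Per the file headers, the authors deposited for each peak a fold enrichment (a linear ratio), a p-value, and the log10 of the false discovery rate. Replicates were joined in 1 list per treatment and reference, and depth per list is unknown.

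Starts were shifted to count from 1. Names came from RefSeq by position, with 80% or more of an identifier's exonic peak bases inside the gene, and from several such genes the only protein-coding one; 1398 of 1512 were named. Peaks were shared from 1 bp of overlap on the same strand. Gained loci had a peak after exposure but not in the control list of that reference, and lost loci the reverse. Genes named besides the members were the listed noncoding RNAs with a peak, the 5 noncoding Rik loci of highest fold, the cell markers, the neighbours and the 5 most alike loci; H19, Meg3, Gas5, the other lncRNA loci and the pseudogenes were named after their values were seen. Members and lists were chosen with earlier results of these data known. The counting was tested on simulated lists of separate genes, each with a single unspliced plus-strand peak at most. Overlapping genes, opposite strands, spliced peaks and several peaks at 1 locus were not simulated. Python 3.11.15, numpy 2.4.6 and matplotlib 3.10.9 were used. Alternatives were identifier only, any exonic overlap, a false discovery rate of at most 0.01, a fold of at least 2, lists of equal length, IgG as reference and 50% reciprocal overlap.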

Additional observations from a re-analysis of the deposited data

How the results depend on the processing

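Without values per animal, no replicate could be left out, and no paired analysis was possible because the lists hold no value for any mouse. Lists of equal length changed several peak sums over the 5 loci. Against input they went from 1 to 0 in the control, from 7 to 0 after PCB126 and from 7 to 0 in the combination. In the combination against IgG the sum went from 7 to 3. These sums, and the checks on single loci, included the plus-strand peaks inside the Malat1 span. Without those peaks the full combination lists held 6 with each reference. With equal length against input, loci gained after PCB126 and in the combination and lost after Aroclor1260 numbered 0. With IgG in place of input, loci with a peak went from 1 to 3 in the control and from 2 to 4 after PCB126, gains went from 1 to 0 after Aroclor1260 and from 3 to 0 in the combination, and losses after Aroclor1260 from 1 to 2. With a reciprocal overlap of 50%, Malat1 peaks found in the combination against IgG went from 1 to 0 for the control, from 2 to 1 for PCB126 and from 2 to 0 for the combination's own input peaks. Another 59 checks on these totals stayed within 1.5 times. Among them were all with identifiers only, any exonic overlap, a false discovery rate of at most 0.01 or a fold of at least 2. The fold limit could remove no peak, since the lowest fold at the 5 loci was 2. Counts of Malat1 peaks shared with the empty Aroclor1260 lists could not change either. Of 200 checks on single loci 16 moved, but many of the 200 started from 0 peaks. Limits that only remove peaks could not move those. The cause was not tested, beyond the shorter lists of the equal-length setting.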

Other observations

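Noncoding loci of other classes had a few peaks. The transcribed pseudogene Adh6-ps1, a relative of alcohol dehydrogenase genes, had 4 peaks after PCB126 against input and 7 against IgG, up to a fold of 10.6 at chr3:138386894-138387093, and 0 in the lists of the other treatments. It shares sequence with its functional relatives, so its reads are uncertain. A gain after PCB126 against both references was called at 15.1% of all loci. The share with peaks after PCB126 in both lists and in no other treatment was not counted. The transcribed pseudogene 4632415L05Rik had 1 control peak with each reference and 2 after PCB126 against input, up to 4. Gm5424 had 1 peak in each of 5 lists, up to 2.04, and Gm7964 in 3 lists, up to 2.6.

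Within a list, several peaks of 1 locus carried the same p-value. At Malat1 after PCB126 against input, the peaks at bases 649 to 849, 949 to 1148 and 1248 to 1996 all had 1.4e-05. At 1810019D21Rik all 3 peaks had 6.3e-15. These p-values therefore do not grade the peaks of a locus against each other.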
